A study of Mus musculus with 12 samples.

Results

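The 39 clustered Hox genes of the mouse were described across 12 RNA-seq libraries of whole embryos at embryonic day 9.5 (E9.5). They were chosen by symbol, as every gene ID in the deposited table that named a Hox gene of cluster A, B, C or D, and made up 39 of 53647 gene IDs. Cluster A held 11 of them on chromosome 6, cluster B 10 on chromosome 11, cluster C 9 on chromosome 15 and cluster D 9 on chromosome 2. Hox genes encode homeodomain transcription factors that set regional identity along the head-to-tail axis. Within a cluster, genes at one end (low paralog numbers) are switched on early and reach far forward into the hindbrain, and genes towards the other end are switched on later and closer to the tail. The 13 paralog groups join the genes that hold the same position in different clusters.

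The libraries came from p53 -/- embryos at 1 h and at 3 h after X-irradiation and without it, and from p53 +/+ embryos in the same 3 states, with 2 libraries in each of the 6 groups. The dose was 30 Gy at 5 Gy/min, given to the pregnant mouse. The study's title names cell-cycle arrest that depends on p53, the transcription factor encoded by Trp53. Levels are given as TPM, the share of a library's transcripts scaled for transcript length. The values carry no count or read depth. The labels do not give the strain, the litter, the somite number or the number of embryos in a library, so a difference between groups and a difference between litters cannot be told apart. Whether the 2 libraries of a group hold different embryos is not stated, so p-values reflect the spread of the libraries alone, which may be technical.

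Trp53 RNA did not follow the labels, though which stretch of the gene the allele lacks is not given in them. It had 265 and 79.1 TPM untreated, 250.1 and 209.5 at 1 h and 242 and 219.8 at 3 h under the knockout label. The wild-type label gave 114 and 211 TPM untreated, 114 and 66.8 at 1 h and 93.7 and 68.03 at 3 h. The untreated knockout-labelled library numbered 2 was far below the other 5 of its label, and the untreated wild-type-labelled library numbered 2 was above the other 5 of its label. The groups are therefore named by their labels throughout. The 2 libraries of 1 h that are numbered 2 stood apart. On the first principal component they scored 66.4 (knockout label) and 67.9 (wild-type label), against -46.1 to 11.8 in the other 10, and 86 ribosomal protein genes took 18.5% and 18.4% of their TPM, against 10.6% to 12.6%. Libraries with the same number deviated together in all 15 pairs of groups (Pearson's r across genes of 0.327 to 0.796), so fits with the number as a block are given where they change a call.

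Members differed widely in level, and those at the tail end of each cluster were the lowest, as the map of levels by cluster shows. Hoxb9, the gene with the highest mean, averaged 36.2 TPM over the 12 libraries, followed by Hoxb2 at 28.2, Hoxb8 at 19.7 and Hoxb3 at 15.1 TPM. The ranges of these neighbours overlapped: Hoxb9 lay between 9.64 and 58.6 TPM, and Hoxb2 between 11.7 and 37.9 TPM. Genes of highest mean in other paralog groups were Hoxa4, Hoxa5, Hoxc6 and Hoxa7, which averaged between 9.32 and 14.1 TPM, and then Hoxd10 at 1.60, Hoxa11 at 0.792, Hoxd13 at 0.298 and Hoxd12 at 0.0108 TPM. Hoxb13 and Hoxc12 were listed at 0 in all 12 libraries. A library held between 22 and 34 members at 1 TPM or more, 22 and 24 of them in the untreated libraries labelled knockout and 34 in the 1 h library labelled knockout numbered 2.

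**Figure D1:**
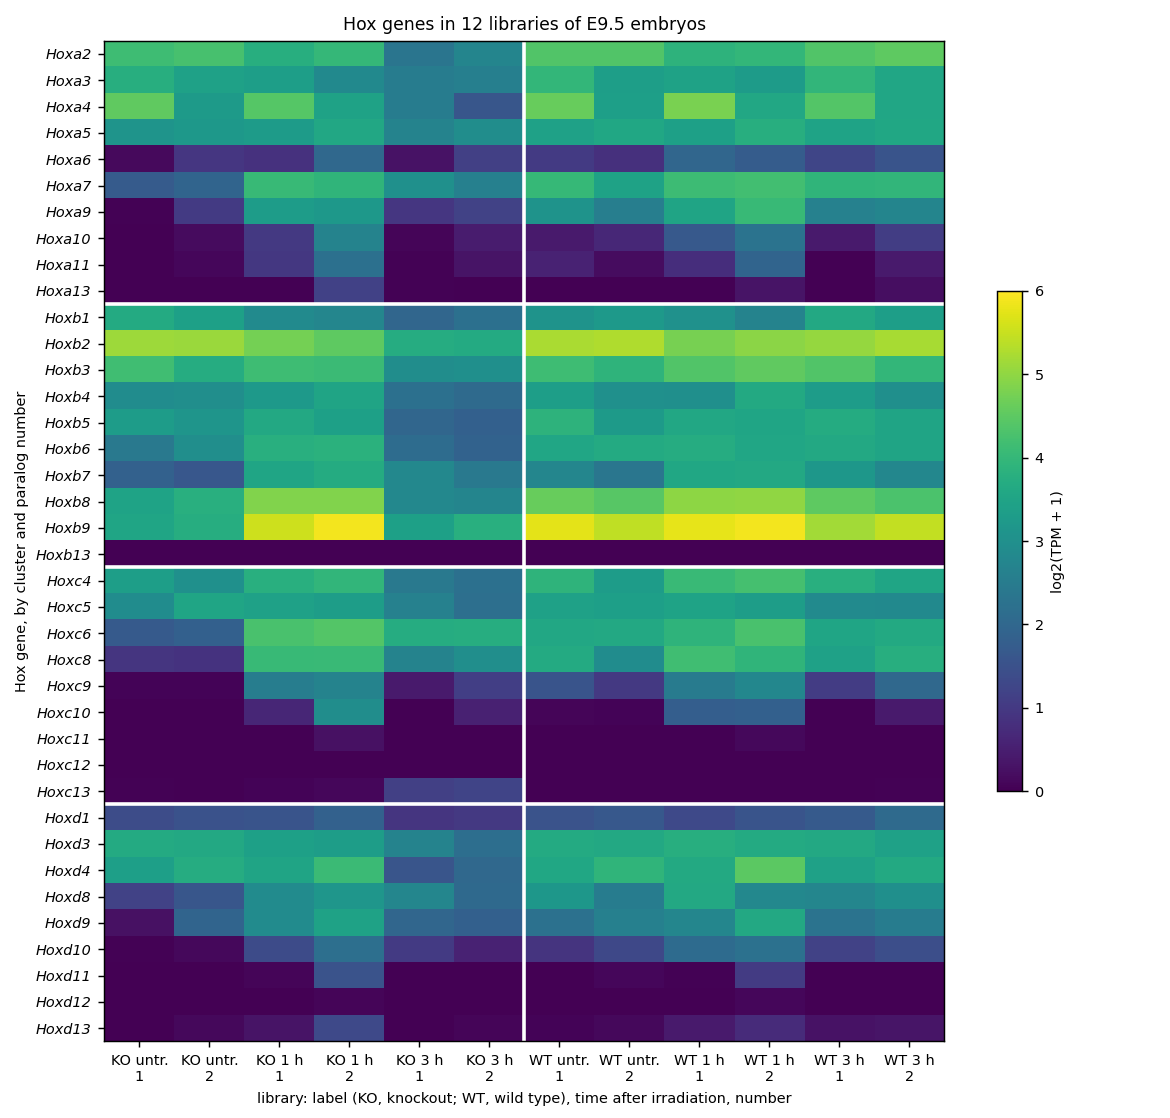
Level of the Hox genes (rows, by cluster and paralog number) in each of 12 libraries (columns, 2 per group), as log2(TPM + 1) on a colour scale from 0 to 6. Genes at the tail end of each cluster are near 0 in most libraries, Hoxa7, Hoxb7, Hoxc6, Hoxc8 and Hoxc9 are lowest in the untreated libraries labelled knockout, and Hoxc13 passes 1 TPM in the 3 h libraries labelled knockout and in no other.

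Of the 39 genes, 33 reached 1 TPM in at least 2 libraries and were tested. Hoxa13, Hoxb13, Hoxc11, Hoxc12, Hoxd12 and Hoxd13 did not. Hoxc13 passed that filter only through the 3 h libraries labelled knockout, and Hoxa10, Hoxa11, Hoxc10 and Hoxd11 only through 1 h libraries. These genes had to be higher there, so a count, median or correlation that includes them is no support by itself. All log2 fold changes below are on the scale of log2(TPM + 1), which understates the change of low genes, and come from limma fitted to all 15535 genes that passed, with Benjamini-Hochberg adjusted p-values called under 0.05. Over 14 comparisons 24 members were called at least once. The matching share of all genes was not computed, so this count is no result by itself.

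The summed level of the 39 genes was 222 and 216 TPM untreated, 348 and 386 TPM at 1 h and 132 and 132 TPM at 3 h under the knockout label. Under the wild-type label it was 365 and 309 TPM untreated, 389 and 415 TPM at 1 h and 331 and 330 TPM at 3 h. The total was thus lower in the untreated than in the 1 h libraries labelled knockout, lowest at 3 h in that label, and its values under the wild-type label lay between 309 and 415 TPM. Paralog groups 1 to 4, the genes of the hindbrain and anterior trunk, made up 73.9% and 65.8% of the Hox total in the untreated libraries labelled knockout, against 48.4% and 50.1% in the untreated libraries labelled wild type. Paralog groups 9 to 13, active in the posterior trunk and tail, made up 4.92% and 7.69% in the untreated libraries labelled knockout, against 18.7% and 17.9% in those labelled wild type.

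**Figure D2:**
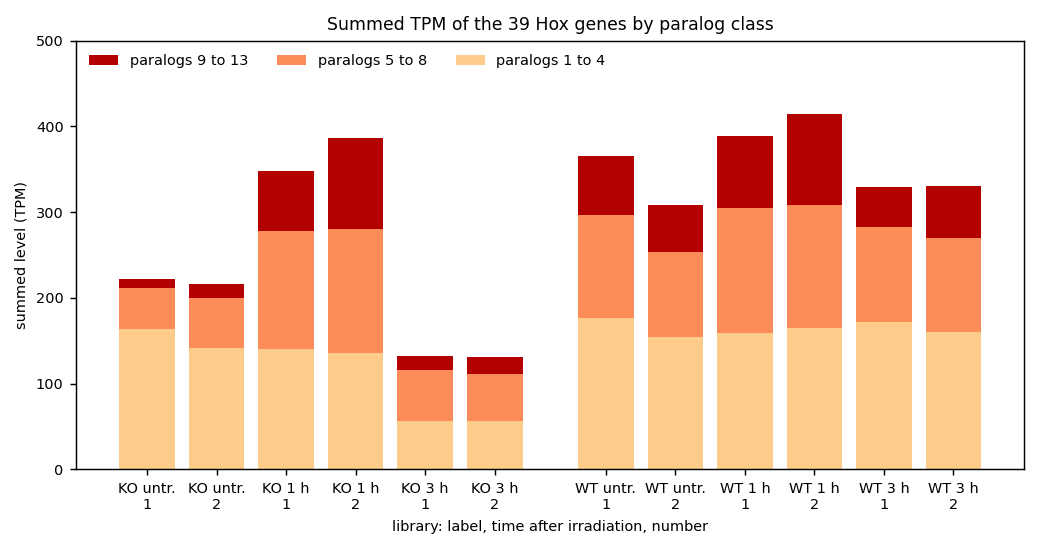
Summed TPM of the 39 Hox genes in each of 12 libraries, stacked by paralog class (groups 1 to 4, 5 to 8 and 9 to 13). The untreated libraries labelled knockout keep a large band of groups 1 to 4 (164 and 142 TPM) with 10.9 and 16.6 TPM of groups 9 to 13, and the 3 h libraries of that label hold 56.7 and 56.9 TPM of groups 1 to 4.

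The stretches before the transcription starts of a pair of genes called higher at 1 h and of a pair called lower at 3 h are shown with the motifs a search found in them. Each gene shown holds the core marked in it, so the pairs do not stand for all genes called. Promoter sequences were those of RefSeq (GRCm38.p6), which held 24 promoters of 22 of the 39 genes, and 250 bases before each start were searched on both strands; the deposited values were made with GRCm39. The CDX core TTTATG, bound by caudal homeodomain proteins, was found before 5 of the 22 genes (Hoxa7, Hoxb8, Hoxd3, Hoxd4 and Hoxd11) and in 10.8% of all 32851 promoters. The PBX-HOX core TGATNNAT was found before 4 (Hoxa2, Hoxb1, Hoxb8 and Hoxd11) and in 7.7% of all promoters. Hoxa7 and Hoxb8 rose at 1 h under the knockout label, and at 3 h Hoxa7 was above and Hoxb8 below untreated; each stretch holds 2 CDX cores, in capitals, and reads 5′ to 3′ along its gene (CATAAA is the core on the other strand). The Hoxa7 stretch ends where an annotated exon begins.
Hoxa7, chr6:52218712-52218823, minus strand: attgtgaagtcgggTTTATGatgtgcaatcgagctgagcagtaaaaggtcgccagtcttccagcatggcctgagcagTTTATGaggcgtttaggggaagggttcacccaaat
Hoxb8, chr11:96281655-96281904, plus strand: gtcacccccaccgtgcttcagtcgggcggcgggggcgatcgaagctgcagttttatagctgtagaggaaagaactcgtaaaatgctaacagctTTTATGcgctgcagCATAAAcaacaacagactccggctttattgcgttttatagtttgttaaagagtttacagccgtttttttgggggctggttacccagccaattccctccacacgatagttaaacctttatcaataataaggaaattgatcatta
Hoxa2 and Hoxb1 fell at 3 h under that label and differed between labels in their 3 h change; each stretch holds 1 PBX-HOX core, in capitals (ATCAATCA is the core on the other strand). Hoxb1 is known in the mouse to act on its own promoter through such sites.
Hoxa2, chr6:52164832-52165081, minus strand: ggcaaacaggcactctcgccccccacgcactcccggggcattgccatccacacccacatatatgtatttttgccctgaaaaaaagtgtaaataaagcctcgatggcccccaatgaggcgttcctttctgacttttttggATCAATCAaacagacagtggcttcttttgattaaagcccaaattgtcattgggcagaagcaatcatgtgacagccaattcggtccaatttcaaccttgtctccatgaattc
Hoxb1, chr11:96365508-96365751, plus strand: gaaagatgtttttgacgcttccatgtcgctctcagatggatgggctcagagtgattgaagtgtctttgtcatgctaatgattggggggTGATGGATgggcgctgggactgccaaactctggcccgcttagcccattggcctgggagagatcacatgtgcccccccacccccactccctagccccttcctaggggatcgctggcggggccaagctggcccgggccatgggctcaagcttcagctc
Hoxd3 and Hoxd4, which hold a CDX core as well, were not called at 1 h under the knockout label (log2 fold changes of -0.26 and 0.26) and fell at 3 h. Hoxa9, Hoxb7, Hoxb9, Hoxc6 and Hoxc8, also called higher at 1 h under that label, had no CDX core found or no promoter listed. Likewise no PBX-HOX core was found for Hoxa3, Hoxb2, Hoxb3, Hoxb5, Hoxc4, Hoxd3 and Hoxd4, also called lower at 3 h, or no promoter was listed. No CDX core in the printed stretches overlapped a PBX-HOX core. A match is a run of letters in this window and not a measured binding site.

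Without irradiation, Hoxb9, Hoxc6 and Hoxc8 were lower in embryos labelled knockout than in embryos labelled wild type. They were the only 3 genes called among 15535 (0.0193% lower; 186 genes, 1.2%, at an unadjusted p under 0.05). Hoxc6 had 2.26 and 2.56 TPM in the untreated libraries labelled knockout, against 11.2 and 11.3 TPM in those labelled wild type. Hoxc8 had 0.9 and 0.83 TPM under the knockout label, against 11.8 and 6.54 TPM under the wild-type label. Hoxb9 had 10.6 and 12.3 TPM under the knockout label, against 53.2 and 41.7 TPM under the wild-type label. No value of one label reached the range of the other. All 3 genes pattern the thoracic skeleton, and Hoxb9 also acts in the motor columns of the spinal cord. The log2 fold changes were -1.84 ± 0.167 (SE) for Hoxc6 (adjusted p = 0.0368), -1.95 ± 0.21 (SE) for Hoxb9 (0.0498) and -2.40 ± 0.259 (SE) for Hoxc8 (0.0498), n = 2 per group, by limma. With the library number as a block Hoxc8 was not called (adjusted p = 0.0527), and 2 members were (0.0129% of all genes tested, all lower).

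Across the members, the lower values lay mainly in paralog groups 5 to 13. All 11 genes of groups 5 to 8 and 9 of the 10 tested in groups 9 to 13 had negative log2 fold changes, with medians of -0.89 and -0.74, while groups 1 to 4 had a median of -0.12 and all genes tested one of -0.01. The value for groups 9 to 13 depends on the filter. With no filter their median was -0.06 over 16 genes, many of them near 0 TPM. Over the 6 genes that pass without the 1 h libraries it was -1.28. Hoxa7 had 2.31 and 2.79 TPM in the untreated libraries labelled knockout, against 15.3 and 9.94 TPM in those labelled wild type. Hoxa9 had 0.03 and 1.04 TPM, against 7.41 and 4.9 TPM, and Hoxc9 had 0.04 and 0.04 TPM, against 1.96 and 0.99 TPM. In 7 members (Hoxa7, Hoxb7, Hoxc6, Hoxc8, Hoxc9, Hoxd8 and Hoxd10) both untreated libraries labelled knockout were lower than each of the other 10 libraries, 21.2% of the 33 tested, against 0.895% of all genes tested. In these 7 members the untreated libraries followed the label. Trp53 RNA ran with the labels in the untreated libraries numbered 2 (79.1 TPM labelled knockout, 211 TPM labelled wild type). In those numbered 1 it went against them. The 3 calls rested on all libraries: leaving out any 1 of the 12 left 0 members called, except that 1 was called without either 1 h library labelled wild type.

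**Figure D3:**
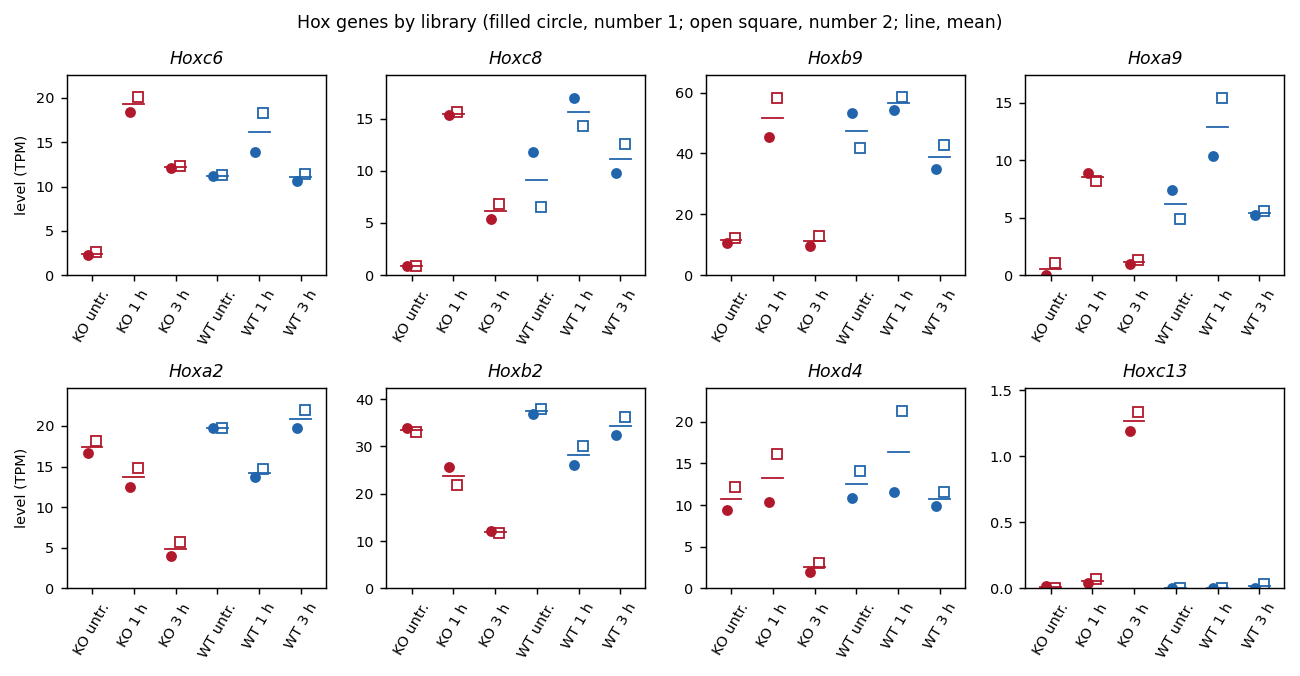
TPM of 8 Hox genes in each library, by label (KO, knockout; WT, wild type) and time, with filled circles for libraries numbered 1, open squares for those numbered 2 and a line at the mean of each pair. Hoxc6, Hoxc8, Hoxb9 and Hoxa9 are low in the untreated libraries labelled knockout, Hoxa2, Hoxb2 and Hoxd4 are low in the 3 h libraries labelled knockout, and Hoxc13 is at 1.19 and 1.34 TPM there and at most 0.07 TPM elsewhere.

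At 1 h after irradiation, 7 central and posterior Hox genes were higher than without irradiation under the knockout label. There 7 of 33 members rose (Hoxa7, Hoxa9, Hoxb7, Hoxb8, Hoxb9, Hoxc6 and Hoxc8) and none fell, while 0.0837% of all genes tested rose and 0.0193% fell. The called genes made up 7 of the 13 that rose in the whole transcriptome. Hoxc8 averaged 15.5 ± 0.198 TPM at 1 h, against 0.865 ± 0.0495 TPM untreated (SD, n = 2 each), a log2 fold change of 3.15 ± 0.259 (SE) with an adjusted p of 0.00421 by limma. Hoxc6 rose by 2.57 ± 0.167 (SE) (0.0012), and it was the only member of the 7 that kept its call whichever library was left out. Leaving out a 1 h library of that label, or its untreated library numbered 1, brought the count to 1. It was 2 without its untreated library numbered 2, and 3 to 4 without a 3 h library of either label or an untreated one with the wild-type label. With the block, 10 members rose (0.251% of all genes rose and 0.663% fell), among them Hoxb6 (adjusted p = 0.0436), Hoxc9 (0.0221) and Hoxd10 (0.04).

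Central and posterior members had more positive 1 h changes than anterior ones under both labels. Among the tested members, groups 1 to 4 had median log2 fold changes of -0.11 under the knockout label and -0.04 under the wild-type label, groups 5 to 8 had 1.23 and 0.41, and groups 9 to 13 had 1.77 and 0.97. Spearman's rho between paralog number and log2 fold change was 0.70 under the knockout label and 0.72 under the wild-type label, over 33 genes that share the same libraries. These values depend on the filter. Over all 39 genes, with no filter, the medians of groups 9 to 13 were 1.17 and 0.49, close to those of groups 5 to 8, and rho was 0.38 and 0.42. Without the 4 genes that passed only through 1 h libraries, groups 9 to 13 had medians of 2.08 and 0.86 over 6 genes, and rho was 0.77 and 0.69 over 29. The 1 h changes under the 2 labels, which share no library, had a Pearson's r of 0.76 across the 33 genes and 0.80 without those 4; genes are not independent replicates. Under the wild-type label limma called no gene of 15535 (0%; 618, or 3.98%, at an unadjusted p under 0.05, 11 of them Hox genes). The lowest adjusted p among members was 0.89, for Hoxb7, whose log2 fold change of 1.05 had a 95% interval of 0.54 to 1.56.

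**Figure D4:**
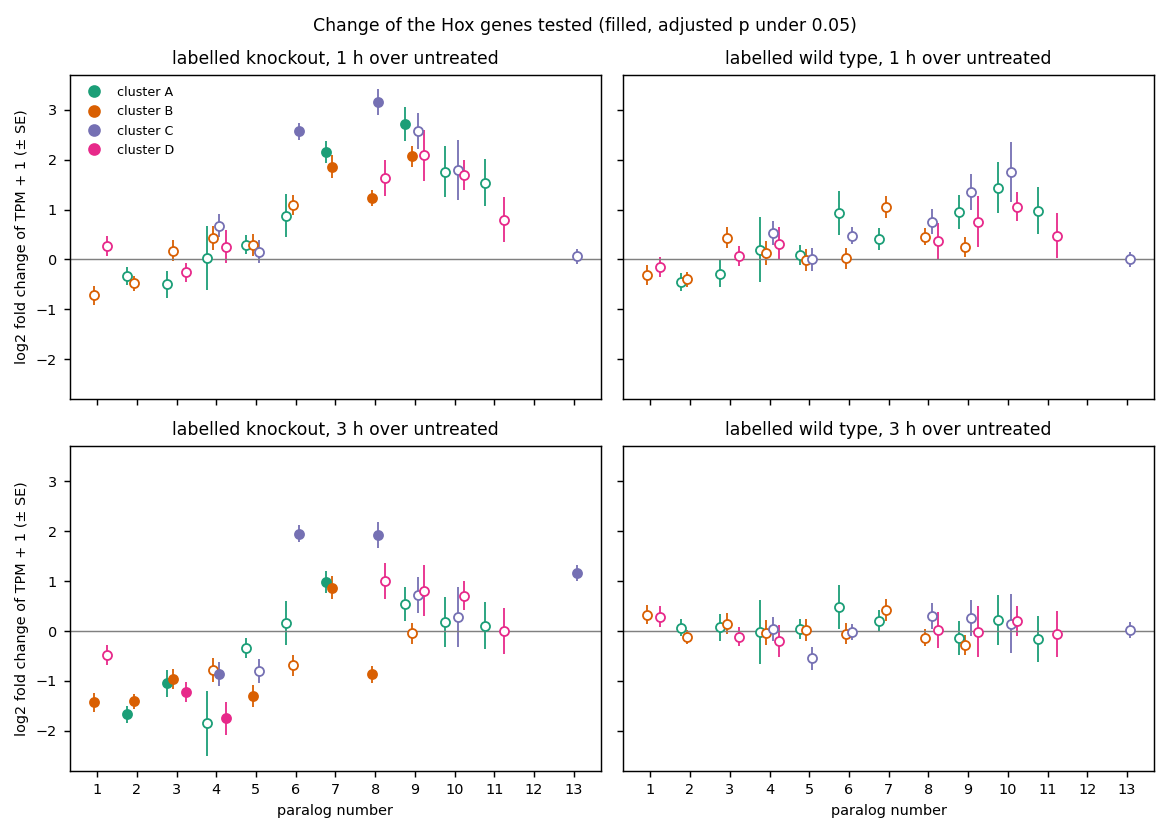
Log2 fold change of TPM + 1 (± SE) of the Hox genes tested against paralog number, coloured by cluster, for 1 h (top) and 3 h (bottom) over untreated, with the knockout label on the left and the wild-type label on the right. Filled points have an adjusted p under 0.05: 7 genes in the 1 h panel and 15 in the 3 h panel of the knockout label, and none under the wild-type label.

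At 1 h the 3 genes that differed between untreated labels had closer values. Hoxc6 had 18.5 and 20.1 TPM at 1 h under the knockout label, against 13.9 and 18.4 TPM under the wild-type label. Hoxc8 had 15.4 and 15.7 TPM, against 17.02 and 14.3 TPM, and Hoxb9 had 45.4 and 58.2 TPM, against 54.2 and 58.6 TPM. The values of the labels overlapped for Hoxc8 and Hoxb9 and not for Hoxc6, and no member was called between labels at 1 h (0.0386% of all genes tested were called, and 0 Hox genes, against 1.35% of all genes, had an unadjusted p under 0.05). The 95% intervals of the log2 difference were -0.60 to 0.58 for Hoxc8, -0.61 to 0.35 for Hoxb9 and -0.13 to 0.63 for Hoxc6. The difference between the 1 h changes of the labels was not called for any member (0.00644% of all genes were), with Hoxc6 nearest at 2.10 ± 0.236 (SE) and an adjusted p of 0.0693; with the block it was called (0.00849; 0.0515% of all genes). The 1 h and the untreated comparison of the labels share no library, but the 1 h change under the knockout label is measured from the same untreated libraries that were low against the wild-type label.

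Over both labels together, 8 members rose at 1 h (0.0837% of all genes tested rose) and none fell: the 7 above and Hoxc9. Hoxc9, a gene of the thoracic spinal cord and skeleton, had 0.04 and 0.04 TPM untreated, 4.87 and 5.46 at 1 h and 0.36 and 1.16 at 3 h under the knockout label. Wild-type-labelled libraries held 1.96 and 0.99 TPM untreated, 4.61 and 5.83 at 1 h and 1.09 and 3.06 at 3 h. In 11 members, Hoxc9 among them, all 4 of the 1 h libraries were above all 4 untreated ones, 33.3% of those tested, against 2.7% of all genes, and in 9 of them all 4 exceeded the other 8 libraries (27.3%, against 0.875%). Hoxa10, Hoxa11 and Hoxc10 are among the 11, and both of the last among the 9. Among the genes that pass the filter without the 1 h libraries, 8 of 29 members (27.6%, against 2.56% of 15131 genes) showed the first pattern and 7 (24.1%, against 0.786%) the second. Within a label, both 1 h libraries exceeded both untreated ones in 22 members under the knockout label (66.7%, against 11.3% of all genes) and in 17 under the wild-type label (51.5%, against 10.6%), or in 18 (62.1%, against 10.7%) and 14 (48.3%, against 10.2%) of those 29. Both were lower in 6 members under the knockout label (18.2%, against 20.3%) and in 4, among them Hoxa2, Hoxb1 and Hoxb2, under the wild-type label (12.1%, against 16%), shares at or below those of all genes. With the block 13 rose (1.07% of all genes) and 3, among them Hoxa2 and Hoxb2, fell (3.12%). Without both 1 h libraries numbered 2, the libraries that stood apart, no member was called over both labels and 1, Hoxc6, under the knockout label. That fit has 10 libraries, and the log2 fold change of Hoxc6 in it was 2.51 under the knockout label, against 2.57 with all 12. Leaving out any single library left 0 to 4 of the 8 calls over both labels.

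The remaining members that rose at 1 h under the knockout label also had lower untreated values there than under the wild-type label. Hoxb7, which acts in the thoracic region, had 2.66 and 2.08 TPM untreated, 10.5 and 11.9 at 1 h and 5.98 and 4.39 at 3 h under the knockout label. For the wild-type label, values were 5.73 and 4.15 TPM untreated, 10.98 and 11.4 at 1 h and 8.03 and 5.91 at 3 h. Each 1 h value of either label exceeded the other 8. Hoxb8, known from spinal cord and haematopoietic progenitors, had 10.1 and 12.9 TPM untreated, 28.1 and 28.1 at 1 h and 6.01 and 5.59 at 3 h under the knockout label. Libraries labelled wild type had 23.3 and 20.9 TPM untreated, 30.4 and 31.1 at 1 h and 21.8 and 18.6 at 3 h. Here too the 4 values of 1 h were the highest. Hoxa9, a regulator of thoracic vertebrae and of blood stem cells, had 0.03 and 1.04 TPM untreated, 8.91 and 8.16 at 1 h and 0.94 and 1.28 at 3 h under the knockout label. In the wild-type label it measured 7.41 and 4.9 TPM untreated, 10.4 and 15.4 at 1 h and 5.2 and 5.59 at 3 h. Its 4 values of 1 h were the highest as well. Hoxa7, of the upper thoracic region, had 2.31 and 2.79 TPM untreated, 15.5 and 14.2 at 1 h and 7.03 and 5.14 at 3 h under the knockout label. With the wild-type label it stood at 15.3 and 9.94 TPM untreated, 16.4 and 17.1 at 1 h and 14.2 and 14.4 at 3 h. Its 1 h values exceeded the untreated ones under both labels as well. In the same 1 h libraries neural tube markers (Sox2, Pax6, Sox1, Nkx6-1 and Olig3) summed to 113 and 117 TPM, against 193 and 178 TPM untreated, under the knockout label, and to 124 and 132 TPM, against 175 and 174 TPM untreated, under the wild-type label. Anterior neural markers summed to 89.1 and 88.1 TPM at 1 h, against 161 and 163 TPM untreated, under the knockout label, and to 90.8 and 93.9 TPM, against 139 and 130 TPM, under the wild-type label. The list of spinal neuron markers (Isl1, Lhx3, Tubb3, Neurog2, Elavl3 and Olig2) summed higher at 1 h. The sums were 118 and 127 TPM, against 58.8 and 93.6 TPM untreated, under the knockout label. They were 121 and 165 TPM, against 93.8 and 92.7 TPM, under the wild-type label. In RNA of whole embryos this sum does not measure spinal neurons alone. In each label the sums of neural tube and anterior neural markers were thus lower in both 1 h libraries, and that of spinal neuron markers higher. Primitive erythroid markers summed to 4804 and 8289 TPM at 1 h, against 1924 and 4987 TPM untreated, under the knockout label, and to 8539 and 10536 TPM, against 5974 and 5772 TPM, under the wild-type label. Heterochronic genes, whose levels change with embryonic stage, summed to 656 and 687 TPM at 1 h, against 904 and 1052 TPM untreated, under the knockout label, and to 746 and 644 TPM, against 868 and 1060 TPM, under the wild-type label. The part of cell makeup in the 1 h changes was not tested.

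Apart from Hoxc13, the most posterior genes were seen mainly at 1 h and most in the libraries numbered 2. Hoxa10, Hoxa11, Hoxc10 and Hoxd11 passed the filter only through 1 h libraries and had to be higher there. Their 1 h values are no support by themselves. Hoxa10, which patterns lumbar vertebrae, had 0 and 0.13 TPM untreated, 0.99 and 5.47 at 1 h and 0.05 and 0.38 at 3 h under the knockout label. Its wild-type-labelled values were 0.34 and 0.59 TPM untreated, 2.19 and 3.89 at 1 h and 0.35 and 1.13 at 3 h. All 4 values of 1 h exceeded the 4 untreated ones. Hoxc10, active in lumbar motor neurons, was listed at 0 in both untreated libraries labelled knockout and had 0.57 and 6.66 TPM at 1 h, against 0.06 and 0.04 TPM untreated and 2.47 and 2.58 TPM at 1 h in those labelled wild type. At 3 h it had 0 and 0.47 TPM under the knockout label and 0 and 0.36 TPM under the wild-type label. Hoxa11, a gene of the sacral region, forearm and kidney, had 0 and 0.08 TPM untreated, 0.97 and 3.66 at 1 h and 0.02 and 0.24 at 3 h under the knockout label. The wild-type label gave 0.49 and 0.14 TPM untreated, 0.72 and 2.82 at 1 h and 0 and 0.36 at 3 h. All 4 values of 1 h exceeded the other 8. Hoxd13, of the digits and hindgut, had 0 and 0.1 TPM untreated, 0.24 and 1.52 at 1 h and 0 and 0.06 at 3 h under the knockout label. Under the wild-type label it had 0.04 and 0.1 TPM untreated, 0.36 and 0.66 at 1 h and 0.22 and 0.27 at 3 h. Hoxd12 had 0.06 and 0.07 TPM in the 1 h libraries numbered 2 labelled knockout and wild type, and was listed at 0 in the other 10. None of these genes was called at 1 h under either label. Other members that no comparison called were Hoxd8, between 1.28 and 11.2 TPM, Hoxd9, between 0.2 and 11.3, Hoxa6, between 0.12 and 3.06, and Hoxd11, between 0 and 1.88 TPM. Among those not tested, Hoxa13 reached 1.23 TPM in the 1 h library labelled knockout numbered 2, and Hoxc11 did not exceed 0.2 TPM. At 1 TPM, the highest paralog number seen in cluster A was 7 and 9 in the untreated libraries labelled knockout, 9 and 13 at 1 h and 7 and 9 at 3 h; under the wild-type label it was 9 and 9 untreated, 10 and 11 at 1 h and 9 and 10 at 3 h.

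At 3 h the libraries labelled knockout had lower anterior Hox genes and a mixed change of central ones. Against untreated, 10 members fell and 5 rose (all genes tested: 5.87% fell and 6.25% rose), and all 12 genes of paralog groups 1 to 4 had negative log2 fold changes, 8 of them called, with a median of -1.13 against -0.12 over all genes tested. In groups 5 to 8, Hoxa7, Hoxb7, Hoxc6 and Hoxc8 rose and Hoxb5 and Hoxb8 fell. The 4 that rose were measured from untreated libraries labelled knockout that were below each of the other 10 libraries. At 3 h none of the 4 was called higher than under the wild-type label, and Hoxa7 was called lower. In groups 9 to 13, Hoxc13 rose, and it passed the filter only through these 3 h libraries. With median-of-ratios size factors the median of all genes was -0.005 and 63.8% of all calls were higher, against 51.6% as deposited, and no called member changed direction. With the block 16 members fell (18.1% of all genes), among them all 12 of groups 1 to 4, and 5 rose (11.1%). The count of 15 was 7 without the 3 h library labelled knockout numbered 1, 8 without that numbered 2 and 9 without the untreated library labelled knockout numbered 2. Under the wild-type label no gene of 15535 was called at 3 h (0%; 524, or 3.37%, at an unadjusted p under 0.05); the 33 members had log2 fold changes with a median of 0.03 and a range of -0.55 to 0.48.

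Paralog groups 1 and 2 pattern the hindbrain and the cranial neural crest. Hoxa2, which specifies the second branchial arch, had 16.7 and 18.1 TPM untreated, 12.5 and 14.9 at 1 h and 4.03 and 5.65 at 3 h under the knockout label. Wild-type-labelled libraries held 19.7 and 19.8 TPM untreated, 13.7 and 14.7 at 1 h and 19.7 and 21.96 at 3 h. It fell at 3 h under the knockout label, with a log2 fold change of -1.67 ± 0.178 (SE) (adjusted p = 0.000598, limma). Hoxb2, of rhombomeres 3 to 5, had 33.9 and 33.05 TPM untreated, 25.7 and 21.8 at 1 h and 12.2 and 11.7 at 3 h under the knockout label. For the wild-type label, values were 36.9 and 37.9 TPM untreated, 26.1 and 30.1 at 1 h and 32.4 and 36.3 at 3 h. Its change of -1.41 ± 0.147 (SE) (0.000526) was 2.66-fold lower on the TPM + 1 scale. For both genes each 3 h library labelled knockout was below all other 10 libraries. Hoxb1, the gene of rhombomere 4, had 11.7 and 9.65 TPM untreated, 6.32 and 5.77 at 1 h and 2.96 and 3.68 at 3 h under the knockout label. Libraries labelled wild type had 7.52 and 8.42 TPM untreated, 7.14 and 5.38 at 1 h and 11.3 and 9.32 at 3 h. The 3 h change under the knockout label was -1.43 ± 0.198 (SE) (0.0022). Hoxd1, known in the mouse from pain-sensing neurons, had 1.63 and 1.83 TPM untreated, 1.95 and 2.65 at 1 h and 0.9 and 1 at 3 h under the knockout label. In the wild-type label it measured 1.89 and 2.14 TPM untreated, 1.5 and 1.93 at 1 h and 2.24 and 3.18 at 3 h. Both 3 h values under the knockout label were the lowest of the 12.

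Paralog groups 3 and 4 act in the posterior hindbrain and neck. Hoxd4, which patterns cervical vertebrae, had 9.41 and 12.1 TPM untreated, 10.4 and 16.1 at 1 h and 1.98 and 3.06 at 3 h under the knockout label. With the wild-type label it stood at 10.9 and 14.1 TPM untreated, 11.5 and 21.3 at 1 h and 9.89 and 11.5 at 3 h. Its 3 h change under the knockout label was -1.75 ± 0.325 (SE) (adjusted p = 0.0098). Hoxd3, of the first neck vertebrae, had 11.6 and 11.2 TPM untreated, 9.64 and 9.19 at 1 h and 5.41 and 3.46 at 3 h under the knockout label. Its wild-type-labelled values were 11.6 and 11.3 TPM untreated, 12.5 and 11.7 at 1 h and 11.3 and 9.79 at 3 h. Its lowest 2 values of the 12 were those of 3 h under the knockout label. Hoxb3, of the posterior hindbrain, had 16.8 and 12.04 TPM untreated, 16.6 and 15.96 at 1 h and 6.73 and 6.98 at 3 h under the knockout label. The wild-type label gave 16.5 and 13.9 TPM untreated, 19.7 and 22.2 at 1 h and 19.6 and 14.6 at 3 h. These 3 genes fell, and in each the 3 h libraries labelled knockout were the lowest 2 of the 12. Hoxa3, needed for thymus and parathyroid, had 12.7 and 9.89 TPM untreated, 9.36 and 6.18 at 1 h and 4.74 and 5.06 at 3 h under the knockout label. Wild-type-labelled libraries held 14.7 and 9.3 TPM untreated, 10.01 and 8.86 at 1 h and 14.5 and 10.7 at 3 h. The 3 h values under the knockout label were again the lowest. Hoxc4, of the neck and upper thorax, had 9.31 and 7 TPM untreated, 12.8 and 14.4 at 1 h and 4.39 and 3.63 at 3 h under the knockout label. For the wild-type label, values were 14.04 and 8.98 TPM untreated, 15.8 and 17.8 at 1 h and 12.8 and 10.5 at 3 h. So were those of Hoxc4. Hoxb4, also known from blood stem cells, had 6.53 and 6.76 TPM untreated, 8.35 and 10.3 at 1 h and 3.68 and 3.23 at 3 h under the knockout label. Libraries labelled wild type had 9.22 and 7.04 TPM untreated, 6.98 and 11.4 at 1 h and 9.02 and 6.9 at 3 h. Hoxb4 was lowest in the same libraries. Hoxa3 (0.0382) and Hoxc4 (0.0485) fell at 3 h under the knockout label, and Hoxb4 was not called (0.0819).

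Hoxa4, of the neck, split by library number within every group. It had 22.4 and 8.64 TPM untreated, 20.3 and 10.02 at 1 h and 4.72 and 2.03 at 3 h under the knockout label. In the wild-type label it measured 23.2 and 9.53 TPM untreated, 26.6 and 11.1 at 1 h and 20.04 and 10.8 at 3 h. In every group the library numbered 1 was the higher one (log2 difference of number 2 over number 1 of -1.06, limma adjusted p = 0.00032). In the main fit its change of -1.85 ± 0.649 (SE) at 3 h under the knockout label was not called (0.11). With the number as a block the adjusted p was 9.2e-05. Of the other members tested, Hoxd4 (0.46, limma adjusted p = 0.00605), Hoxa3 (-0.32), Hoxa5 (0.21) and Hoxa10 (0.63) differed by library number as well. Of all 15535 genes tested, 4876 were higher and 1788 lower in libraries numbered 2. A difference by library number was thus common and is not particular to these members. What the number stands for is not given in the labels.

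In the middle of the clusters, neighbours differed in the direction of their 3 h change from untreated under the knockout label. Hoxc6, of the upper thorax, had 2.26 and 2.56 TPM untreated, 18.5 and 20.1 at 1 h and 12.1 and 12.3 at 3 h under the knockout label. With the wild-type label it stood at 11.2 and 11.3 TPM untreated, 13.9 and 18.4 at 1 h and 10.6 and 11.5 at 3 h. Both untreated values under the knockout label were below the other 10. Hoxc8, in the same cluster, had 0.9 and 0.83 TPM untreated, 15.4 and 15.7 at 1 h and 5.4 and 6.82 at 3 h under the knockout label. Its wild-type-labelled values were 11.8 and 6.54 TPM untreated, 17.02 and 14.3 at 1 h and 9.78 and 12.6 at 3 h. Both rose against untreated, by 1.95 ± 0.167 (SE) (adjusted p = 0.000202) and 1.92 ± 0.259 (SE) (0.00194). They also fell against 1 h. Hoxb5, of the shoulder region, had 8.93 and 7.75 TPM untreated, 11.2 and 9.57 at 1 h and 2.96 and 2.6 at 3 h under the knockout label. The wild-type label gave 13.7 and 8.58 TPM untreated, 11.04 and 10.5 at 1 h and 11.9 and 10.3 at 3 h. Hoxb5 fell at 3 h under the knockout label with a log2 fold change of -1.30 ± 0.22 (SE) (0.00615). Hoxb6, of the upper thorax, had 4.41 and 6.77 TPM untreated, 12.7 and 13.2 at 1 h and 3.36 and 2.71 at 3 h under the knockout label. Wild-type-labelled libraries held 10.8 and 11.7 TPM untreated, 12.1 and 10.8 at 1 h and 11.3 and 10.4 at 3 h. Hoxb8, described above, fell, with -0.87 ± 0.163 (SE) (0.0101). Hoxb7, which lies between Hoxb6 and Hoxb8, rose, with 0.87 ± 0.224 (SE) (0.0385). Hoxa5, a regulator of lung and cervical patterning, had 7.6 and 8.2 TPM untreated, 8.83 and 11.2 at 1 h and 5.46 and 6.64 at 3 h under the knockout label. For the wild-type label, values were 9.72 and 10.8 TPM untreated, 9.59 and 12.6 at 1 h and 10.2 and 10.99 at 3 h. Its 3 h values under the knockout label were the lowest 2. Hoxc5, of the neck, had 6.52 and 10.6 TPM untreated, 9.81 and 9.05 at 1 h and 5.25 and 3.58 at 3 h under the knockout label. Libraries labelled wild type had 9.83 and 9.41 TPM untreated, 10.1 and 9.19 at 1 h and 6.33 and 6.15 at 3 h. Neither was called at 3 h against untreated under the knockout label (0.326 and 0.0605). Hoxd10, active in lumbar motor neurons and hindlimb, had 0.03 and 0.1 TPM untreated, 1.59 and 3.6 at 1 h and 1.03 and 0.49 at 3 h under the knockout label. In the wild-type label it measured 0.88 and 1.47 TPM untreated, 3.26 and 3.75 at 1 h and 1.27 and 1.7 at 3 h. The untreated values under the knockout label were the lowest 2, and Hoxd10 was not called at 3 h (0.182).

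Hoxb9, the member of highest mean, was higher at 1 h than at either other time under the knockout label. It had 10.6 and 12.3 TPM untreated, 45.4 and 58.2 at 1 h and 9.64 and 12.7 at 3 h under the knockout label. With the wild-type label it stood at 53.2 and 41.7 TPM untreated, 54.2 and 58.6 at 1 h and 34.9 and 42.8 at 3 h. Its 3 h change against untreated under the knockout label was -0.04, with a 95% interval of -0.52 to 0.44, and against 1 h it was -2.12 ± 0.21 (SE) (adjusted p = 0.000555). Between 3 h and 1 h under the knockout label 19 members fell and 1, Hoxc13, rose (4.31% of all genes tested fell and 6.89% rose), and with the block 27 fell (15.8%) and 1 rose (13.4%). The count of 20 was 10 without both 1 h libraries numbered 2, 12 without the 1 h library labelled knockout numbered 2, and 10 and 9 without the 3 h libraries labelled knockout numbered 1 and 2. Between 3 h and 1 h under the wild-type label none was called (0%; 13 members among 928 genes, 5.97%, at an unadjusted p under 0.05); there Hoxb8 was nearest (-0.59, adjusted p = 0.7), and Hoxa2 and Hoxb1 had positive changes of 0.52 and 0.64.

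Hoxc13 was the only member in which both 3 h libraries labelled knockout exceeded each of the other 10 (3.03% of those tested, against 11% of all genes). Hoxc13, the last gene of cluster C, acts in hair and nail. It had 0.02 and 0 TPM untreated, 0.04 and 0.07 at 1 h and 1.19 and 1.34 at 3 h under the knockout label. Its wild-type-labelled values were 0 and 0 TPM untreated, 0 and 0 at 1 h and 0 and 0.03 at 3 h. It rose by 1.16 ± 0.16 (SE) (adjusted p = 0.00212) against untreated, a value that depends on the pseudocount of 1 because the gene was listed at or near 0 elsewhere. Hoxc13 also passed the filter only through the 3 h libraries labelled knockout. It had to be higher there to be tested, so its call is no support by itself. Its cluster neighbour Hoxc12 was listed at 0 in these libraries, and Hoxc11 as well.

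Set against the wild-type label at 3 h, 17 members were lower under the knockout label and 1, Hoxc13, higher (all genes tested: 5.07% lower, 5.25% higher; 50.8% of calls higher, against 68.1% with size factors, where the median of all genes was -0.004 in place of -0.161), and all 12 genes of groups 1 to 4 had negative log2 fold changes, 10 of them called. With the block 19 were lower and 1 higher (18.5% and 9.67% of all genes), Hoxa4 among those added (adjusted p = 9.32e-05). In 16 members both 3 h libraries labelled knockout were lower than each of the other 10, 48.5% of those tested, against 15.1% of all genes. Hoxa2 differed by -1.91 ± 0.178 (SE) (adjusted p = 0.000317), Hoxb2 by -1.45 ± 0.147 (SE) (0.000554) and Hoxb8 by -1.64 ± 0.163 (SE) (0.000478). Hoxc6 did not pass (0.708), with 12.1 and 12.3 TPM in the libraries labelled knockout against 10.6 and 11.5 TPM in those labelled wild type. Leaving out 1 library brought the count of called members from 18 to 8 without the 3 h library labelled knockout numbered 2 or the one labelled wild type numbered 1, to 9 without the other 3 h library labelled knockout and to 11 without the other labelled wild type.

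The difference between the 3 h changes of the labels was tested directly. It was called for 5 members: Hoxa2, Hoxb1 and Hoxb2 changed more negatively under the knockout label, and Hoxc6 and Hoxc13 more positively (all genes tested: 0.856% and 2.59%, or 3.45% in all). The differences were -1.74 ± 0.252 (SE) for Hoxa2 (adjusted p = 0.00778), -1.76 ± 0.28 (SE) for Hoxb1 (0.0115), -1.29 ± 0.208 (SE) for Hoxb2 (0.0125), 1.98 ± 0.236 (SE) for Hoxc6 (0.00299) and 1.14 ± 0.226 (SE) for Hoxc13 (0.0311). Hoxa2 and Hoxc6 kept their calls whichever library was left out. For Hoxc6 the labels lay apart untreated (means of 2.41 TPM for knockout and 11.2 TPM for wild type). At 3 h its means were close (12.2 and 11 TPM). Hoxc13 passed the filter only through the 3 h libraries labelled knockout. Without the knockout-labelled library numbered 1, untreated or at 3 h, the count was 2. It was 3 without the knockout-labelled 3 h library numbered 2, either wild-type-labelled 3 h library or the wild-type-labelled untreated library numbered 1. With the block 14 members were called, 11 of them more negative and 3 more positive (7.39% and 5.99% of all genes), among them Hoxb5 (0.00751), Hoxd3 (0.0141) and Hoxd4 (0.00533), and Hoxc8 more positive (0.0241). Spearman's rho of the difference against paralog number was 0.76 over the 33 genes and 0.67 over all 39 with no filter. The difference subtracts the untreated comparison of labels, where rho was -0.45 over the 33 genes and 0.03 over all 39 with no filter. Over the 29 tested genes that pass without the 1 h libraries it was -0.73. In the direct comparison of labels at 3 h, rho was 0.53 over the 33 genes, 0.67 over all 39 and 0.36 over those 29. The untreated and 3 h values thus depend on the filter. Over both labels together at 3 h, 7 members fell and 4 rose against untreated (2.61% and 3.76% of all genes tested), with 11 and 5 under the block (10.6% and 8.62%), and the count of 11 was 3 to 7 without any single library. Against 1 h, 16 fell and 1 rose (2.55% and 5.16%; 66.9% of calls higher, against 51.1% after quantile normalization), with 25 and 1 under the block (12.5% and 13.4%), and the count of 17 was 5 to 9 without any of the 3 h libraries or either 1 h library numbered 2.

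HOX proteins bind DNA with cofactors of the TALE class, the PBX, MEIS and PKNOX proteins. Their 9 genes had negative log2 fold changes at 3 h under the knockout label, with a median of -0.63 against -0.12 over all genes tested, and 4 of 9 fell (5.87% of all genes tested fell): Pknox2 with -1.30 ± 0.163 (SE) (adjusted p = 0.00146), Meis1 with -1.48 ± 0.316 (SE) (0.0183), Pbx2 with -0.63 ± 0.157 (SE) (0.0353) and Meis2. Meis1 had 68.6 and 44.5 TPM untreated, 55.1 and 39.2 at 1 h and 22.7 and 16.1 at 3 h under the knockout label. The wild-type label gave 61 and 47.9 TPM untreated, 65.3 and 42.5 at 1 h and 54.4 and 41.5 at 3 h. Both 3 h libraries labelled knockout were the lowest for Meis1. No TALE gene was called at 1 h under the knockout label or between labels without irradiation. Of 6 homeobox neighbours of the clusters and ParaHox genes, 1 was tested, Mnx1, and it was not called at 3 h (log2 fold change of 0.10). Of 8 tested RNAs from the Hox clusters other than the 39 genes, 1 fell: Hoxaas2, an antisense RNA in cluster A, had 1.4 and 1.39 TPM at 3 h, against 5.11 and 4.51 TPM untreated, under the knockout label (0.0096). Whether the counting used strand is not given in the sources used here, so reads of antisense RNAs and Hox genes that overlap cannot be told apart.

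Lists of genes that regulate the clusters are read against the 5.87% of all genes tested that fell and the 6.25% that rose at 3 h under the knockout label. Caudal factors and genes of axial elongation, which act on central and posterior Hox genes, had 6 of 12 tested members that fell at 3 h under the knockout label: Gdf11 with -1.85 ± 0.209 (SE) (adjusted p = 0.000818), Fgf17 with -1.82 ± 0.223 (SE) (0.00127), Lin28a with -1.62 ± 0.235 (SE) (0.0028), and Wnt5a, Lin28b and Sall4. None of the 6 is a caudal gene. Cdx2 had 0.57 and 0.34 TPM untreated, 1.15 and 1.54 at 1 h and 0.52 and 1.09 at 3 h under the knockout label, and 1.43 and 1.11 TPM untreated, 1.09 and 1.18 at 1 h and 0.91 and 1.26 at 3 h under the wild-type label. Both untreated values of Cdx2 under the knockout label were below those under the wild-type label, but it was called in no comparison (between untreated labels, a log2 difference of -0.64 ± 0.22 (SE) with a limma adjusted p of 1). Cdx1 lay between 2.01 and 6.33 TPM and was not called either, and Cdx4 did not exceed 0.35 TPM. Gdf11, a signal that advances posterior Hox expression, had 4.01 and 2.97 TPM at 3 h, against 15.2 and 14.9 TPM untreated, under that label. In the retinoic acid pathway, which switches on anterior Hox genes, 2 of 18 rose and 4 fell (log2 fold changes in brackets from here on): the receptor genes Rarg (0.96) and Rxrg (1.31) rose and the degrading enzyme gene Cyp26b1 fell (-1.24), and Crabp2, Aldh1a3 and Cyp26c1 fell too. Of 23 Polycomb genes, which keep Hox genes silent, 4 fell, among them Cbx2 (-1.22) and Phc1 (-1.02), and Phf1 rose (1.48). Of 13 Trithorax and other activators 1 fell, the histone demethylase gene Kdm6b (-0.69, adjusted p = 0.0469), a share near that of all genes. Of 5 regulators of anterior Hox genes in the hindbrain 2 fell, Fgf3 (-1.25) and Vgll2 (-1.33), and 3 of 6 heterochronic genes fell, Lin28a, Lin28b and Igf2bp3. None of the genes in these lists was called at 1 h under the knockout label or in the untreated comparison of labels; with the block, Lin28a (0.0276) and Cyp26b1 (0.0324) were called at 1 h.

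Markers of the neural tube and mesoderm, tissues that express Hox genes, changed in the same 3 h libraries labelled knockout, and in bulk RNA fewer cells of a type and less RNA per cell cannot be told apart. Against untreated, 5.87% of all genes tested fell there and 6.25% rose. All 5 neural tube markers fell against untreated, Nkx6-1 with -2.15 ± 0.197 (SE) (adjusted p = 0.000266), Olig3 with -1.72 ± 0.19 (SE) (0.00072) and Sox1 with -1.74 ± 0.194 (SE) (0.000733), and their summed level was 31.0 to 36.5 TPM at 3 h, against 178 to 193 TPM untreated and 113 to 181 TPM in the other 8 libraries. Of 11 markers of the anterior neural plate, a region that lacks Hox expression, 9 fell, Six3 (-2.34), Lhx2 (-1.88) and Otx2 (-1.59; log2 fold changes in brackets, here and for the genes that follow) with the smallest p, and the sum was 41.3 to 45.1 TPM, against 161 to 163 TPM. Spinal neuron markers summed to 33.5 to 37.9 TPM, against 58.8 to 93.6 TPM, with 3 of 6 lower (Olig2, -2.76; Neurog2, -1.97; Isl1, -1.58). Somite markers summed to 49.7 to 58.6 TPM, against 70.9 to 100 TPM; Meox2 (-1.86) and Pax3 (-1.31) fell and Mesp2 rose (2.18). Limb and lateral plate markers summed to 52.9 to 53.7 TPM, against 79.7 to 80.2 TPM, and of 7 tested Prrx1 fell (-0.75) and Tbx4 rose (2.53). The part of these cell types in the 3 h Hox changes was not tested.

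Markers of blood and vessels were higher, or were not called, at 3 h under the knockout label, where 6.25% of all genes tested rose. Primitive erythroid markers summed to 11014 to 13304 TPM, against 1924 to 4987 TPM untreated, and 3 of 4 rose (log2 fold changes in brackets), among them Hba-x (1.81) and Hbb-bh1 (2.02). Endothelial markers summed to 153 to 157 TPM, against 110 to 122 TPM, with 1 of 4, Pecam1, that rose (0.65). Cardiac markers summed to 1027 to 1464 TPM, against 639 to 1064 TPM, and visceral endoderm markers to 125 to 328 TPM, against 12.6 to 102 TPM, and none of either list was called; Myl7 had 694 and 604 TPM, against 491 and 392 TPM, and Afp 51.9 and 158 TPM, against 3.97 and 53.7 TPM. Of 4 trophoblast markers 1, Plac1, was tested and not called, and Tpbpa was listed at 0 in all 12 libraries, as was Msgn1 of the presomitic mesoderm. At 1 h Otx2, of the forebrain and midbrain, was the only listed marker called (0.0193% of all genes tested fell). It fell under the knockout label (-1.22, limma adjusted p = 0.0286), with 19.9 and 22.4 TPM at 1 h, against 47.6 and 53.5 TPM untreated. The untreated libraries labelled knockout had 1924 to 4987 TPM of erythroid markers, against 5772 to 5974 TPM in those labelled wild type, with none of the 4 called. The part of these cells in the Hox differences was not tested.

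**Figure D5:**
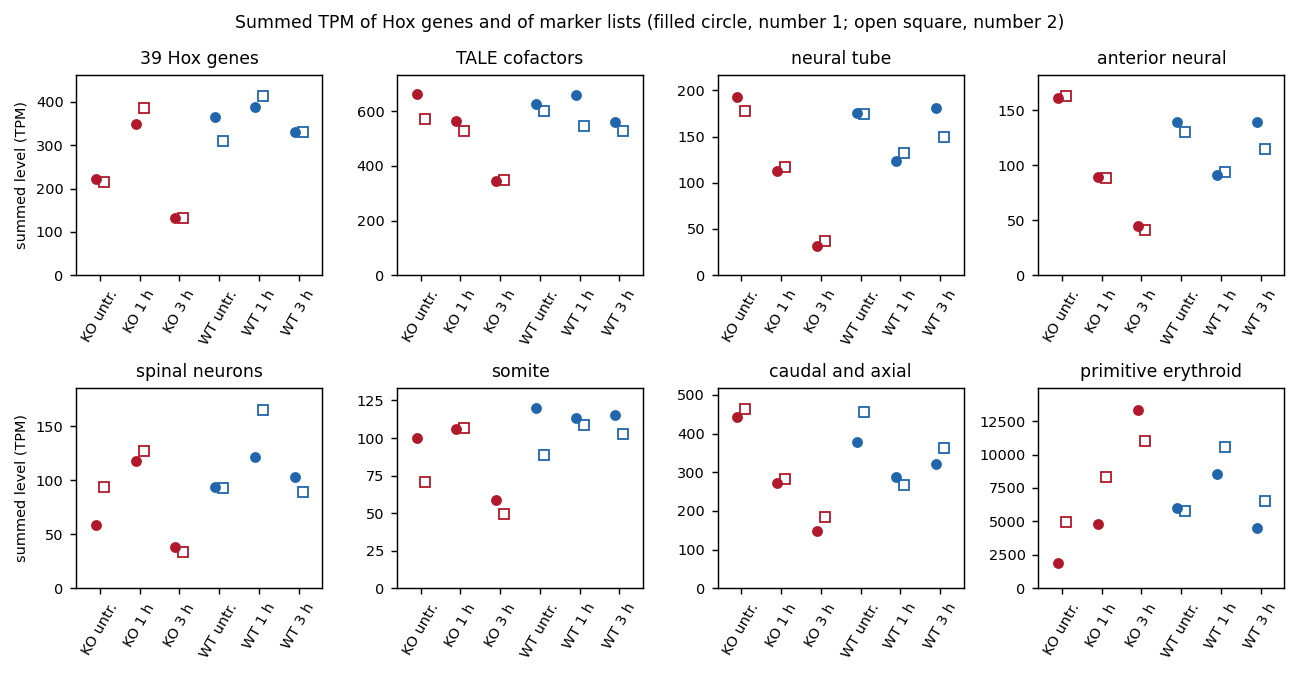
Summed TPM per library of the 39 Hox genes and of 7 lists of other genes, by label and time, with filled circles for libraries numbered 1 and open squares for those numbered 2 (each panel has its own linear axis from 0). The 3 h libraries labelled knockout are lowest in the Hox, TALE cofactor, neural tube, anterior neural, spinal neuron, somite and caudal panels and highest in the erythroid panel, while the untreated libraries labelled knockout are low in the Hox panel (222 and 216 TPM) and not in the anterior neural panel (161 and 163 TPM).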

How the data were processed

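Whole E9.5 mouse embryos were profiled by poly-A-selected, 2 × 75 bp paired RNA-seq, per the labels' protocols. The deposited table holds TPM that the authors made; per the submitters' processing notes RSEM 1.3.3 was used beside HTSeq 0.12.3, R 4.3.3, the aligner STAR 2.7.3a and DESeq2 1.42.1, with GRCm39, and the notes assign none of them a role. TPM sums to 999999.1 to 1000000.8 per library and keeps no depth, so no interval on counts was given. Gene IDs were matched to symbols for 52093 of 53647 (97.1%).

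Genes with at least 1 TPM in at least 2 libraries (15535) were fitted as log2(TPM + 1) with limma 3.58.1 (R 4.3.3) with a trend and 1 mean per group over 12 libraries, 14 comparisons, two-sided, each with Benjamini-Hochberg adjustment over all 15535 genes and a threshold of 0.05. The fit has 6 residual degrees of freedom, and with the library number as a block 5. The labels number the libraries, and same-numbered libraries deviated together in all 15 pairs of groups (r of 0.327 to 0.796), which set the block as the alternative shown beside a changed call. The script was tested on simulated data with independent libraries, which held no shared effect of the library number. Alternatives were a pseudocount of 0.1, no filter, size factors, quantile normalization, the compared groups alone, no trend, the block, a fold change of at least 2, leaving out each library, and leaving out both 1 h libraries numbered 2.

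Every-library values are given for members called in any comparison and for the highest-mean member of each paralog group, with other members by range or where they neighbour these; from each of 19 gene lists up to 3 called genes with the smallest p are given with values. Values of 1 member and of 1 gene of a list are not reported here. Members and lists were chosen with earlier results of these data known. Drawings used Python 3.11.15, pandas 2.3.3 and matplotlib 3.10.9.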

Additional observations from a re-analysis of the deposited data

Results flagged for a closer look

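In 5 members the 3 h change differed between labels by a test of the difference itself (limma, adjusted over all 15535 genes). Hoxa2 differed by -1.74, Hoxb1 by -1.76 and Hoxb2 by -1.29 on the log2(TPM + 1) scale, each more negative under the knockout label. Hoxc6 differed by 1.98 and Hoxc13 by 1.14, each more positive under the knockout label. For Hoxc6 the labels lay apart untreated, with means of 2.41 TPM (knockout) and 11.2 TPM (wild type). At 3 h its means were 12.2 and 11 TPM, a difference that was not called. Hoxc13 passed the filter only through the 3 h libraries labelled knockout, so its call is no support by itself. Trp53 RNA goes against the labels in all of these libraries except the untreated pair numbered 2, which runs with them. The differences are therefore between labels.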

How the results depend on the processing

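Counts of called Hox genes out of 33 moved under several settings. With a pseudocount of 0.1, all 14 counts stayed within 1.5 times. No recomputed called value changed sign under any setting: 104 values were recomputed, and 98 without either 3 h library labelled knockout, where Hoxc13 did not pass the filter. The comparisons of 1 h levels without genes that pass only through 1 h libraries, or with no filter, were chosen after seeing the data.

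Without the filter, 4 members were called at 1 h under the knockout label (7 with it), 1 between untreated labels (3) and 7 over both labels at 3 h (11). With size factors, 1 was called for the difference of 1 h changes (0) and 6 over both labels at 3 h. Quantile normalization gave 1 and 7 for the same comparisons. Without the trend, 1 was called between untreated labels. With a fold change of at least 2, 1 was called over both labels at 3 h against untreated and 6 at 3 h against 1 h (17).

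Fitting only the groups compared left fewer residual degrees of freedom: 0 were called at 1 h under the knockout label, 7 at 3 h (15), 3 at 3 h against 1 h (20), 0 between untreated labels, 0 over both labels at 1 h (8) and 7 at 3 h. Without both 1 h libraries numbered 2, these 6 counts were 1, 14, 10, 0, 0 and 7, and 2 were called over both labels at 3 h against 1 h.

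With the library number as a block, the pairing gave 1 call for the difference of 1 h changes, 14 for that of 3 h changes (5), 16 over both labels at 1 h and 26 at 3 h against 1 h; it kept 103 of the 104 calls.

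Leaving out each library gave ranges of 1 to 5 at 1 h, 7 to 14 at 3 h and 9 to 19 at 3 h against 1 h under the knockout label, and 0 throughout under the wild-type label. Between labels they were 0 to 1 untreated, 0 at 1 h and 8 to 18 at 3 h, with 0 and 2 to 5 for the differences of changes. Over both labels they were 0 to 4, 3 to 7 and 5 to 16. TPM gives no depth, so differences in genes near 0 TPM could not be weighed by read number.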
